A study of Homo sapiens with 12 samples.

Results

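The E2F transcription factors and the retinoblastoma (RB) family were represented by 10 genes in LNCaP, a prostate cancer line that responds to androgen and keeps a functional RB1 gene. The genes were E2F1 to E2F6, their dimerization partner TFDP1, and the pocket protein genes RB1, RBL1 (p107) and RBL2 (p130). They were chosen by gene symbol in the platform annotation, and all 10 were among the 11963 genes named on the arrays, with 17 of the 22277 probe sets. The cells had received a scramble microRNA, the control, or miR-130a, miR-203 or else miR-205 by transfection. Each of these 4 groups had 3 arrays, which the labels call biological replicates, so 12 arrays of total RNA were compared. The sources used here state neither the amount of microRNA nor the time after transfection, and the arrays do not measure the transfected microRNAs themselves.

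E2F factors bind DNA as dimers with a DP protein such as TFDP1. E2F1, E2F2 and E2F3 activate the genes that cells need to enter S phase, while E2F4 and E2F5 act mainly as repressors together with RBL1 and RBL2, and E2F6 represses without binding pocket proteins. RB proteins hold E2F factors in check until cyclin-dependent kinases phosphorylate them. E2F1, E2F2, E2F3 and RBL1 are themselves known targets of E2F factors. E2F3 has been described as a target of miR-203, and E2F1 as a target of miR-205, in other cells.

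The microRNAs are shown because the groups are defined by which of them the cells received. The seed of a microRNA is the stretch of bases 2 to 8 that pairs with a target. Seed sites in the members were not searched. The labels name no arm, and the commonly described guide arm of miR-203 and miR-205 is printed from RefSeq (GRCh38.p14), 5′ to 3′, with the seed in capitals. The arms come from chr14:104117469-104117490 and chr1:209432166-209432187, both on the plus strand. The seeds of both arms differ. miR-130a is named only.
hsa-miR-203a-3p: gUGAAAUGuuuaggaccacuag
hsa-miR-205-5p: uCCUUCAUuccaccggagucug

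Promoters were shown because E2F1 and RBL1 are known targets of E2F factors. Both were called higher with miR-130a, E2F1 only narrowly. Any part of E2F factors in these differences was not tested. A window of 250 bases before to 50 after the start was found in RefSeq's table for 9 of the 10 genes. It was searched on both strands for the E2F consensus in its 4 spellings TTTCCCGC, TTTCGCGC, TTTGCCGC and TTTGGCGC. E2F1 and RBL1 each held 2 matches, which did not overlap. The 250 bases before each start are printed 5′ to 3′ on the gene's own strand, here the minus strand, with the matches in capitals. They lie at chr20:33686386-33686635 for E2F1 and at chr20:37095998-37096247 for RBL1 (GRCh38.p14).
E2F1: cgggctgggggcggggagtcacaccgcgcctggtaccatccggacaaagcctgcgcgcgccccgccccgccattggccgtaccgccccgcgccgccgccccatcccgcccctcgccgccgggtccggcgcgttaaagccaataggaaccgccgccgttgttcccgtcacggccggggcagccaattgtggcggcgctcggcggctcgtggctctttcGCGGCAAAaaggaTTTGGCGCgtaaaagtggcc
RBL1: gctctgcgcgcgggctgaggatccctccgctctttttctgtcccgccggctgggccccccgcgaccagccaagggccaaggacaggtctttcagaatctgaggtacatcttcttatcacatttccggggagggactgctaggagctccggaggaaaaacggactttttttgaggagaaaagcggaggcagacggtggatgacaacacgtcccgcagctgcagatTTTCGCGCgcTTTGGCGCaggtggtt

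In E2F1 the matches began 33 and 20 bases before the start, in RBL1 26 and 16 bases before it. E2F2, E2F3 and TFDP1 held 1 match each, shown on the gene's strand with 10 bases on each side to set them beside those above. The matches lie at chr1:23531268-23531275, chr6:20401826-20401833 (in 1 of 2 E2F3 windows) and chr13:113584633-113584640 (GRCh38.p14), and those of E2F3 and TFDP1 read on the opposite strand, as does the first in E2F1. E2F2 and E2F3 are activators, and TFDP1 is a DP partner of both.
E2F2: cggcacgacgTTTGGCGCtaaaaaaaaa
E2F3: tgaaaagccgGCGGGAAAtccgagtttc
TFDP1: ggcgccgaagGCGCGAAAaggcgcgcag

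No match lay in the windows found for E2F4, E2F6, RB1 and RBL2. The only RB1 window, before the start at chr13:48476200-48476449, held 36.8% G and C, and the other member windows at least 55.2%. Whether it is the main promoter of RB1 was not tested, so no statement is made on RB1 promoters outside it. A match was found in 1164 of all 35116 windows (3.31%) and 2 or more in 51 (0.145%). Among windows with at least 55% G and C in the 250 bases before the start, the share with a match was 4.8%. Of the 33 tested E2F target genes with a window, 18 held a match, beside 3.99% of all 27305 genes with a window. These matches are letters in a window and are no measure of binding.

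Values are log2 probe set values as deposited, between 2.36 and 13.95 on these arrays, and can be compared between groups within 1 probe set but not between genes. A gene's value is that of its brightest probe set on average over the 12 arrays, and a gene was tested if this value exceeded the median of the array on 3 or more of them. Array medians lay between 2.76 and 2.78. This left 6821 genes. Of the 10 members 9 were tested, and E2F2 was not. Differences are log2 values ± the standard error (SE) of a limma fit over all 12 arrays, with p-values adjusted by Benjamini-Hochberg over all tested genes and a threshold of 0.05. By limma's F-test 6 of the 9 (E2F1, E2F3, E2F5, E2F6, TFDP1 and RBL1) differed among the 4 groups, where 60.8% of all tested genes did.

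As expression background for the cell line, 7 luminal prostate markers measured here, among them KLK3 and HOXB13, lay above the array median on all 12 arrays. The basal keratins KRT5 and KRT14 and the leukocyte genes PTPRC and CD3D lay above it on 0 arrays. Of 5 fibroblast genes, COL1A1 lay above it on all 12 arrays, at 2.90 to 3.46, COL3A1 on 2, and the other 3 on 0. For GAPDH, the excess of the 3′ over the 5′ probe set, which tracks RNA integrity, was 0.56 to 0.90 in scramble arrays, 0.72 to 0.74 with miR-130a, 0.74 to 0.80 with miR-203 and 0.60 to 0.73 with miR-205. For ACTB the same excess was larger, at 2.30 to 2.66, 2.18 to 2.33, 2.18 to 2.54 and 2.21 to 2.46 in that order. The part of either in the results was not tested.

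**Figure D1:**
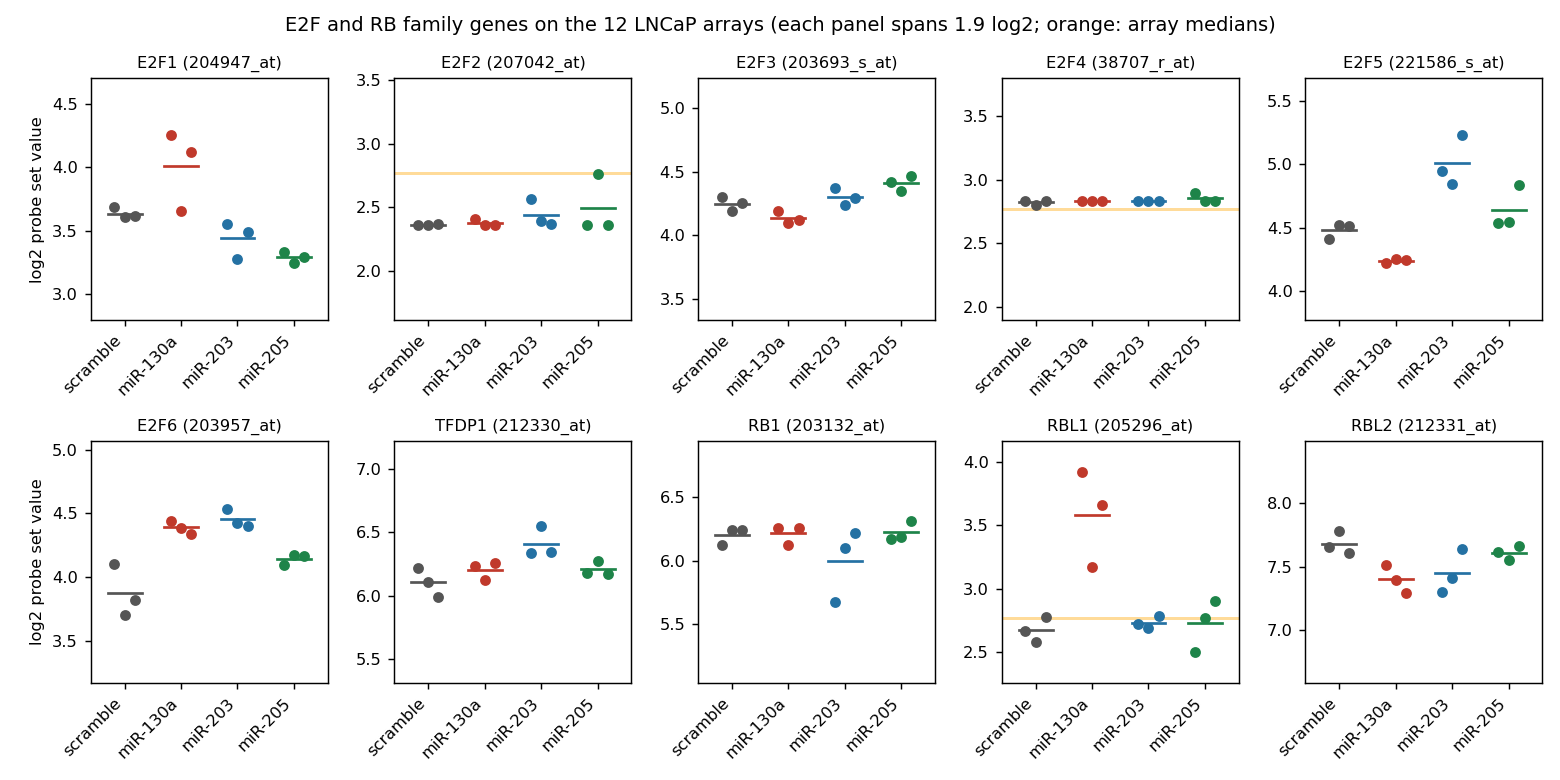
Log2 probe set values (y axis, each panel spanning 1.9 log2) of the 10 genes on the 12 arrays by group (x axis). Points are arrays in replicate order, bars are group means and the orange band is the range of array medians. E2F1 and RBL1 are highest with miR-130a, E2F5 with miR-203, E2F4 stays near the array median, and E2F2 lies below it on all arrays but 1.

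With miR-130a E2F1, E2F6 and RBL1 rose and RBL2 fell, and with miR-203 E2F5, E2F6 and TFDP1 rose. Thus 3 of the 9 tested members rose and 1 fell with miR-130a, where 23.6% of all tested genes passed (12% higher, 11.6% lower). With miR-203 3 rose and 0 fell, where 36.2% of all genes passed. With miR-205 0 passed by limma, where 26.1% of all genes did. With the replicate number as a block in that fit, E2F1 and E2F6 passed with miR-205 (adjusted p = 0.0273 and adjusted p = 0.0477). At an unadjusted p under 0.05 the miR-205 count was 3 (E2F1, E2F3 and E2F6), against 37% of all genes. With 1 array left out the miR-130a count of 4 became 2 to 3, since E2F1 and RBL2 sat close to the threshold, and the miR-203 count became 2 to 5, with RB1 and RBL2 added without miR-203 replicate 3. The median difference of the 9 members was 0.01, 0.05 and 0.05 with miR-130a, miR-203 and miR-205, beside medians over all genes of -0.01, 0.01 and 0.00, with members on both sides of 0 in each comparison. The comparisons with scramble share the 3 scramble arrays.

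**Figure D2:**
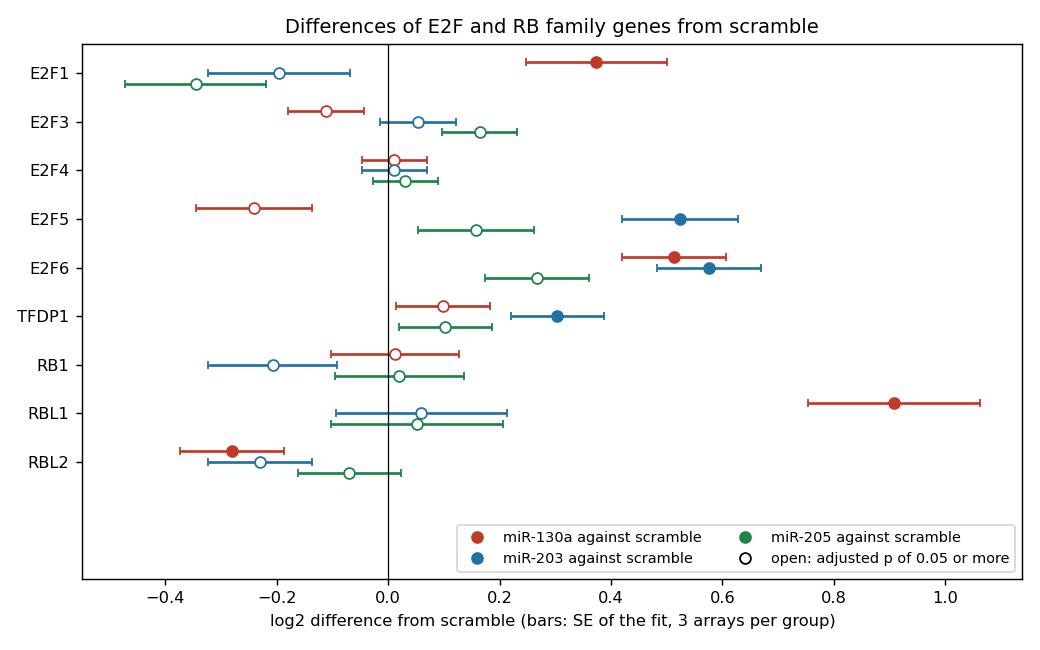
Log2 difference from scramble (x axis, bars: SE of the fit, 3 arrays per group) for the 9 tested genes. Filled points passed at an adjusted p under 0.05 and open points did not. RBL1 with miR-130a stands farthest out at 0.91, and no point of miR-205 is filled.

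Between microRNAs, 2 of the 9 were higher and 1 lower with miR-130a than with miR-203 (21.1% and 20.1% of all genes, 41.2% in all). Against miR-205, 2 were higher and 2 lower with miR-130a (18.2% and 15.4% of all genes, 33.6% in all). With miR-203 2 were higher than with miR-205 and 0 lower (21% and 16.9% of all genes, 37.9% in all), and without miR-205 replicate 1 this count was 0. With scramble, the miR-130a arrays did not overlap in 5 of the 9 genes, the miR-203 arrays in 4 and those of miR-205 in 3 (39.2%, 44.3% and 39% of all genes). Between miR-130a and miR-203, miR-130a and miR-205, and miR-203 and miR-205 they did not overlap in 5, 6 and 3 genes (52.9%, 49.7% and 47.2% of all genes). No test compared these counts among 9 genes with the shares of all genes.

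E2F1, the activator best known for driving S phase genes, was highest in the miR-130a arrays and lowest in the miR-205 arrays. Its values were 3.69, 3.61 and 3.61 in scramble arrays and 4.26, 3.65 and 4.12 with miR-130a. With miR-203 they were 3.55, 3.28 and 3.49, and with miR-205 they were 3.34, 3.24 and 3.29. The miR-203 and miR-205 arrays all lay below the scramble arrays, while miR-130a replicate 2 lay within the scramble range. E2F1 rose with miR-130a by 0.37 ± 0.13 (1.3-fold, adjusted p = 0.0495), just inside the threshold.

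That call was lost without any 1 of 10 arrays, with adjusted p from 0.0506 (without miR-203 replicate 1) to 0.20 (without miR-130a replicate 1, where the difference was 0.25). With 1 array left out, it remained only without miR-130a replicate 2 and without miR-203 replicate 2. With the mean of both E2F1 probe sets the difference was 0.21 (adjusted p = 0.0944). Of all 21 alternatives 16 lost the call. Among them were quantile scaling (adjusted p = 0.0645), array weights (adjusted p = 0.0846) and scramble and miR-130a fitted alone (adjusted p = 0.119). With miR-203 E2F1 differed by -0.20 ± 0.13 (adjusted p = 0.252), and with miR-205 by -0.35 ± 0.13 (adjusted p = 0.0626, 95% interval -0.62 to -0.07). The miR-205 difference passed when miR-130a replicate 1 (adjusted p = 0.0422) or replicate 2 (adjusted p = 0.0108) was left out, and with the mean of its probe sets (adjusted p = 0.0235). When scramble and miR-205 were fitted alone, it passed too (adjusted p = 0.00921).

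The largest differences in E2F1 were those of miR-130a from the other microRNAs. E2F1 was higher with miR-130a than with miR-203 by 0.57 ± 0.13 (adjusted p = 0.00297) and than with miR-205 by 0.72 ± 0.13 (1.65-fold, adjusted p = 0.000728). The arrays did not overlap in either comparison, and both calls held under all 21 alternatives. Between miR-203 and miR-205 E2F1 differed by 0.15 ± 0.13 (adjusted p = 0.387), and these arrays overlapped. The order of the means was miR-130a, scramble, miR-203 and miR-205. In the main fit neither miR-203 nor miR-205 passed against scramble, and miR-203 and miR-205 were not told apart.

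The second E2F1 probe set, 2028_s_at, was dimmer, above the array median on 4 of 12 arrays. It was tested in a fit of 10067 probe sets, of which 21.3%, 33.9% and 24.1% passed against scramble with miR-130a, miR-203 and miR-205, and 31% between miR-130a and miR-205. There it lay at 2.78, 2.87 and 2.61 in scramble arrays and at 2.99, 2.81 and 2.62 with miR-130a, so these groups overlapped. Its difference was 0.05 ± 0.10 with miR-130a (adjusted p = 0.762), against 0.37 ± 0.13 (adjusted p = 0.0547) for the brighter 204947_at in that same fit. With miR-205 the differences were -0.25 ± 0.10 (adjusted p = 0.0882) for 2028_s_at and -0.35 ± 0.13 (adjusted p = 0.0682) for 204947_at. Neither passed the threshold. Probe set 2028_s_at was above the array median on 2 scramble and 2 miR-130a arrays and on 0 arrays of miR-203 and miR-205. Its measured difference between miR-130a and miR-205 was 0.30 ± 0.10 (adjusted p = 0.0341). It could be tested only through the groups where it was high, so this value and its miR-205 difference from scramble are descriptive only.

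E2F2, another activator, gave no usable signal. Its probe set lay at the lowest value of the table within 0.01 on 8 of 12 arrays and above the array median on 1, miR-205 replicate 2, at 2.77. No level or difference is given for E2F2.

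E2F3, the third activator, differed by at most 0.28 between groups. Its values were 4.30, 4.19 and 4.25 in scramble arrays, 4.19, 4.10 and 4.12 with miR-130a, 4.37, 4.24 and 4.29 with miR-203, and 4.42, 4.35 and 4.47 with miR-205. Of the 6 comparisons only that of miR-130a with miR-205 passed, with E2F3 lower by 0.28 ± 0.07 with miR-130a (adjusted p = 0.00702). Those arrays did not overlap, and the call held under all 21 alternatives. Between miR-130a and miR-203 E2F3 passed with quantile scaling (-0.25, adjusted p = 0.0091) and without a filter on dim probe sets (adjusted p = 0.0364), and between miR-203 and miR-205 with array weights (adjusted p = 0.038).

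With miR-203, for which E2F3 has been a described target, E2F3 differed from scramble by 0.05 ± 0.07 (adjusted p = 0.573). The 95% interval ran from -0.09 to 0.20. With miR-205 it was 0.16 ± 0.07 (adjusted p = 0.0945) and with miR-130a -0.11 ± 0.07 (adjusted p = 0.265). The other E2F3 probe set, 203692_s_at, held the same value within 0.01 on 9 of 12 arrays and so carried almost no information on differences.

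E2F4, the most abundant repressor E2F in many cells, could not be followed. Its probe set 38707_r_at held the same value within 0.01 on 10 of 12 arrays, between 2.80 and 2.89 in all, and its differences from scramble lay between 0.01 and 0.03. Probe set 202248_at was above the array median on 0 arrays. Equal values narrow the measured spread, so the fit says little about E2F4.

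E2F5, a repressor that works with RBL1 and RBL2, separated the groups most clearly. Its values were 4.41, 4.53 and 4.51 in scramble arrays and 4.22, 4.26 and 4.25 with miR-130a. With miR-203 they were 4.95, 4.84 and 5.23, and with miR-205 they were 4.54, 4.55 and 4.83. The groups did not overlap in any of the 6 comparisons, with miR-203 at the top and miR-130a at the bottom. E2F5 rose with miR-203 by 0.52 ± 0.10 (1.44-fold, adjusted p = 0.0017), under all 21 alternatives too.

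With miR-130a E2F5 differed from scramble by -0.24 ± 0.10 (adjusted p = 0.116), and it passed when these 2 groups were fitted alone (adjusted p = 0.0273). With miR-205 it differed by 0.16 ± 0.10 (adjusted p = 0.302). E2F5 was lower with miR-130a than with miR-203 by 0.76 ± 0.10 (adjusted p = 7.68e-05) and than with miR-205 by 0.40 ± 0.10 (adjusted p = 0.00975). It was higher with miR-203 than with miR-205 by 0.37 ± 0.10 (adjusted p = 0.0137). Leaving out miR-205 replicate 1 (adjusted p = 0.0594) or 2 (adjusted p = 0.0532) or miR-203 replicate 3 (adjusted p = 0.0557) ended that last call, as did fitting the 2 groups alone (adjusted p = 0.0647). E2F5's other probe set, 222051_s_at, sat at the lowest value of the table on all 12 arrays. Averaged over both probe sets, the miR-203 difference from scramble was 0.26.

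E2F6, a repressor that lacks the pocket protein binding region and acts with polycomb proteins, was lowest in the scramble arrays. Its values there were 4.11, 3.70 and 3.82. They were 4.44, 4.39 and 4.34 with miR-130a, 4.54, 4.42 and 4.40 with miR-203, and 4.10, 4.17 and 4.16 with miR-205. All miR-130a and miR-203 arrays lay above all scramble arrays, while the miR-205 arrays overlapped with scramble replicate 1.

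E2F6 rose with miR-130a by 0.51 ± 0.09 (1.43-fold, adjusted p = 0.00151) and with miR-203 by 0.58 ± 0.09 (1.49-fold, adjusted p = 0.000395). Both calls held under all 21 alternatives. With miR-205 the difference was 0.27 ± 0.09 (adjusted p = 0.0509), just outside the threshold. Leaving out replicate 1 of scramble (0.38, adjusted p = 0.00365) or of miR-203 (adjusted p = 0.0491) brought it past the threshold, as did 5 other alternatives. Between miR-130a and miR-203 E2F6 differed by -0.06 ± 0.09 (adjusted p = 0.618, 95% interval -0.27 to 0.14). It was higher with miR-203 than with miR-205 by 0.31 ± 0.09 (adjusted p = 0.0189), a call that leaving out replicate 1 of miR-203 (adjusted p = 0.0631) or of miR-205 (adjusted p = 0.0639) ended. Between miR-130a and miR-205 it differed by 0.25 ± 0.09 (adjusted p = 0.0584), which passed once scramble replicate 1 (adjusted p = 0.0151) or replicate 2 (adjusted p = 0.0354) was left out. E2F6 has 1 probe set on these arrays.

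TFDP1, the DP partner of E2F1 to E2F6, was highest with miR-203. Its values were 6.22, 6.11 and 5.99 in scramble arrays, 6.23, 6.12 and 6.25 with miR-130a, 6.34, 6.55 and 6.34 with miR-203, and 6.18, 6.27 and 6.17 with miR-205. The miR-203 arrays lay above all others. TFDP1 rose with miR-203 by 0.30 ± 0.08 (adjusted p = 0.0125), and leaving out scramble replicate 3 (adjusted p = 0.0568) or miR-203 replicate 2 (adjusted p = 0.0583) ended the call. So did fitting the 2 groups alone (adjusted p = 0.0525) and, at 0.19, with the mean of its probe sets (adjusted p = 0.0708).

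TFDP1 differed from scramble by 0.10 ± 0.08 with miR-130a (adjusted p = 0.439) and by 0.10 ± 0.08 with miR-205 (adjusted p = 0.411). Between miR-203 and the other microRNAs it did not pass either (adjusted p = 0.0663 and adjusted p = 0.0764). Both differences passed with quantile scaling (adjusted p = 0.029 and adjusted p = 0.0392) and with array weights (adjusted p = 0.00346 and adjusted p = 0.00667). The dim probe set 204147_s_at, above the array median on 5 of 12 arrays, differed from scramble by 0.07 ± 0.11 with miR-203 (adjusted p = 0.668).

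RB1, the founding pocket protein gene, showed no difference past the threshold in any of the 6 comparisons. Its values were 6.13, 6.24 and 6.24 in scramble arrays, 6.26, 6.13 and 6.26 with miR-130a, 5.67, 6.10 and 6.22 with miR-203, and 6.17, 6.18 and 6.31 with miR-205. Only miR-203 replicate 1 stood apart, below every other array. RB1 differed from scramble by 0.01 ± 0.12 with miR-130a (95% interval -0.24 to 0.26) and by 0.02 ± 0.12 with miR-205 (95% interval -0.23 to 0.27). With miR-203 it differed by -0.21 ± 0.12 (adjusted p = 0.181). Without miR-203 replicate 1 that value was -0.05, and without miR-203 replicate 3 it was -0.32 (adjusted p = 0.0489). Without replicate 3 RB1 was also higher with miR-130a than with miR-203 by 0.33 (adjusted p = 0.0368) and lower with miR-203 than with miR-205, at -0.34 (adjusted p = 0.036). RB1's other probe set was above the array median on 0 arrays.

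RBL1, which encodes p107, was higher with miR-130a than in any other group. Its values were 2.66, 2.58 and 2.78 in scramble arrays, 2.73, 2.70 and 2.78 with miR-203, and 2.51, 2.77 and 2.90 with miR-205. With miR-130a they were 3.92, 3.17 and 3.66, above all 9 other arrays. Against scramble RBL1 rose by a measured 0.91 ± 0.15 (adjusted p = 0.000907), and it was higher with miR-130a than with miR-203 by 0.85 ± 0.15 (adjusted p = 0.000719) and than with miR-205 by 0.86 ± 0.15 (adjusted p = 0.000825).

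All 3 of these calls held in the 20 alternatives in which RBL1 was tested. RBL1 was above the array median on 1 scramble array, 1 miR-203 array, 2 miR-205 arrays and all 3 miR-130a arrays, so the other groups lay at the edge of what could be measured, and these differences may understate the change. Among scramble, miR-203 and miR-205 the differences were within 0.06, with SE 0.15. As in E2F1, the lowest of the miR-130a arrays was replicate 2.

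RBL2, which encodes p130, the pocket protein typical of resting cells, went the other way with miR-130a. Its values were 7.65, 7.78 and 7.60 in scramble arrays and 7.51, 7.39 and 7.29 with miR-130a. With miR-203 they were 7.30, 7.41 and 7.63, and with miR-205 they were 7.62, 7.55 and 7.66. All miR-130a arrays lay below all scramble and all miR-205 arrays.

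RBL2 fell with miR-130a by 0.28 on the log2 scale, with SE 0.09 (adjusted p = 0.0442). This call was lost without any 1 of 9 arrays, with adjusted p up to 0.16 (without miR-130a replicate 3), and it remained without miR-130a replicate 1 and without miR-203 replicates 1 and 3. It was also lost with the replicate number as a block (adjusted p = 0.0657). With miR-203 the difference was -0.23 ± 0.09 (adjusted p = 0.0691), and it passed without miR-203 replicate 3 (-0.32, adjusted p = 0.0148). It also passed with the mean of both probe sets (-0.18, adjusted p = 0.0293), array weights (adjusted p = 0.0467) and limma's trended, robust eBayes (adjusted p = 0.0477). With miR-205 it was -0.07 ± 0.09 (adjusted p = 0.641). Between miR-203 and miR-205 RBL2 passed only without miR-203 replicate 3 (-0.25, adjusted p = 0.042), and between miR-130a and miR-205 only with array weights (adjusted p = 0.0232). The second RBL2 probe set, 212332_at, was above the array median on all 12 arrays and overlapped between all groups, at -0.07 ± 0.11 with miR-130a (adjusted p = 0.704).

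**Figure D3:**
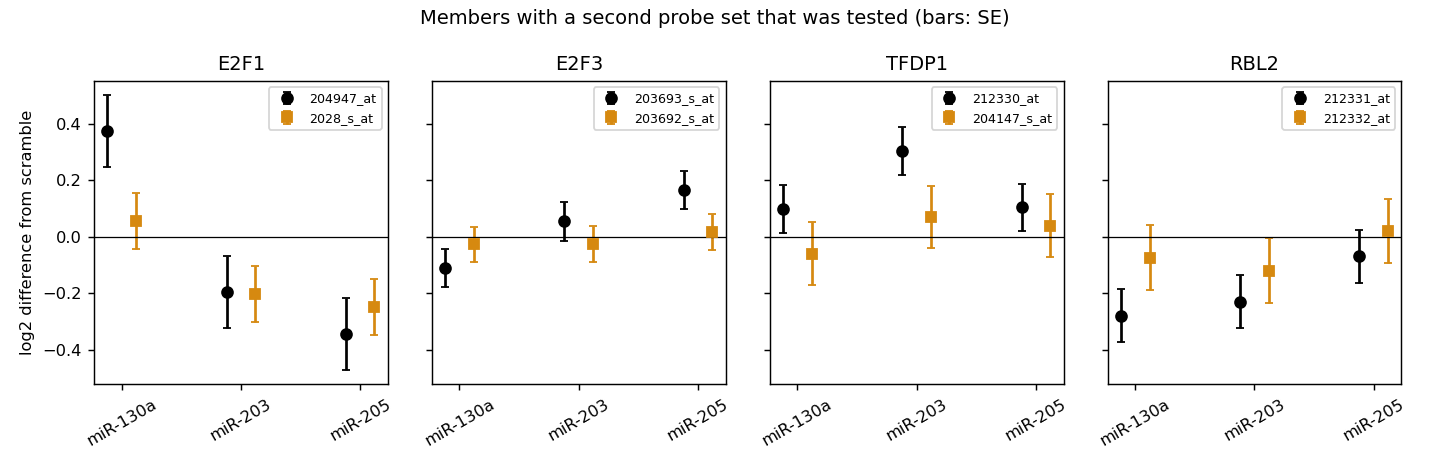
Log2 difference from scramble (y axis, bars: SE) for each microRNA (x axis) in the 4 genes with a second tested probe set, from the fit of 10067 probe sets. Black circles are the brighter and orange squares the dimmer probe set. For E2F1 with miR-130a they lie at 0.37 and 0.05, and with miR-205 at -0.35 and -0.25.

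The genes that E2F factors drive in G1 and S phase, from the origin licensing factor CDC6 to the MCM helicase and ribonucleotide reductase, were called mostly in 1 direction with each microRNA. Of 40 listed genes 36 were named on the arrays and all 36 were tested. With miR-130a 18 rose and 0 fell (12% and 11.6% of all genes), with a median of 0.40. With miR-203 0 rose and 23 fell (17.3% and 18.9% of all genes), with a median of -0.44. With miR-205 0 rose and 30 fell (11.3% and 14.8% of all genes), with a median of -0.91. The miR-130a count was 11 without scramble replicate 3, and it was 10, and the miR-203 count 14, with no filter on dim probe sets. In bulk RNA, fewer cells in S phase and less RNA of these genes per cell cannot be told apart.

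The mean over these 36 genes was 5.74, 5.75 and 5.61 in scramble arrays and 6.14, 6.10 and 6.12 with miR-130a. It was 5.10, 5.38 and 5.35 with miR-203 and 4.70, 4.97 and 4.93 with miR-205. No groups overlapped, and the order of the group means was the same as for E2F1.

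Among the targets with miR-130a, the phosphatase CDC25A, which activates cyclin-dependent kinases, rose by 0.94 ± 0.08 (adjusted p = 4.74e-06). The helicase subunit MCM2 rose by 0.80 ± 0.10, GINS1 of the same replicative helicase by 0.76 ± 0.14 and the clamp loader subunit RFC4 by 0.69 ± 0.16. With miR-203 the largest decreases were RRM2, a subunit of ribonucleotide reductase, at -1.34 ± 0.15 (adjusted p = 1.82e-05), GINS2 at -0.86 ± 0.16, the histone methyltransferase EZH2 at -0.86 ± 0.14 and CDC6 at -0.77 ± 0.15. With miR-205 they were MCM5 at -1.64 ± 0.16 (adjusted p = 1.45e-05), GINS2 at -1.34 ± 0.16, thymidine kinase TK1 at -1.33 ± 0.15 and RRM2 at -1.27 ± 0.15. Beside these, E2F1 stood at -0.35 ± 0.13 with miR-205.

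**Figure D4:**
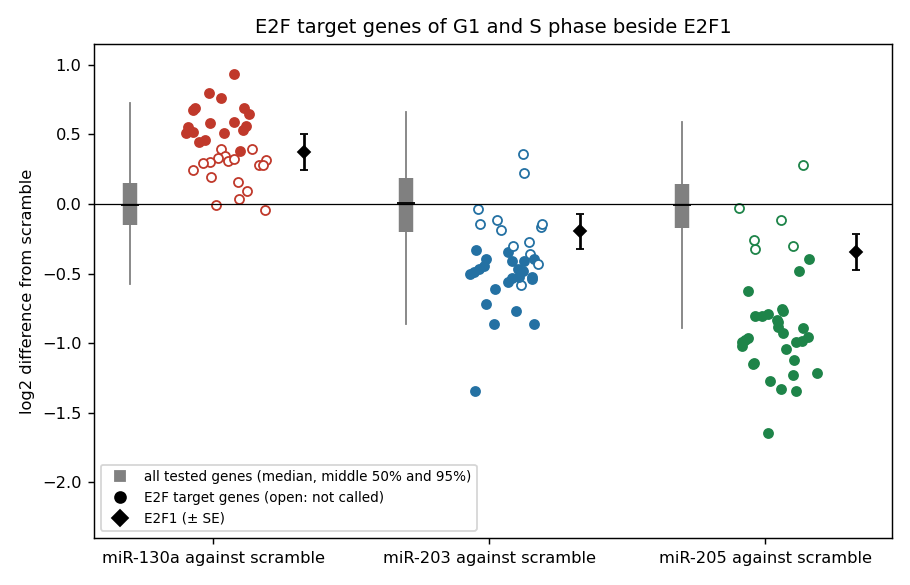
Log2 difference from scramble (y axis) of 36 E2F target genes (circles, filled where called) for each microRNA (x axis), beside all 6821 tested genes (grey: median, middle 50% and 95%) and E2F1 (diamond, ± SE). The target medians are 0.40, -0.44 and -0.91, while E2F1 lies at 0.37, -0.20 and -0.35.

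Of the remaining E2F and DP genes, E2F7 is not analysed here, TFDP3 was not tested and 2 were tested. E2F8, a repressor E2F that acts without a DP partner, differed from scramble by 0.51 ± 0.18 with miR-130a (adjusted p = 0.0637), by -0.22 ± 0.18 with miR-203 (adjusted p = 0.371) and by -0.48 ± 0.18 with miR-205 (adjusted p = 0.0721). It was higher with miR-130a than with miR-203 by 0.73 ± 0.18 (adjusted p = 0.0063) and than with miR-205 by 0.99 ± 0.18 (adjusted p = 0.00107). TFDP2, the other DP partner, differed from scramble by 0.25 ± 0.13, 0.31 ± 0.13 and -0.12 ± 0.13, with no call (adjusted p from 0.0808 to 0.565). It was lower with miR-205 than with miR-130a (adjusted p = 0.0444) and than with miR-203 (adjusted p = 0.0202).

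MuvB is the core that joins E2F4, RBL1 or RBL2 in the repressive DREAM complex and MYBL2 or FOXM1 in activating ones. Of 9 listed genes 5 were tested. With miR-130a 1 rose and 0 fell (12% and 11.6% of all genes), with miR-203 1 rose and 3 fell (17.3% and 18.9%), and with miR-205 1 rose and 2 fell (11.3% and 14.8%). MYBL2, itself an E2F target, rose with miR-130a by 0.42 ± 0.10 and fell with miR-203 and miR-205, at -0.60 ± 0.10 and -1.13 ± 0.10. FOXM1 fell with both, at -1.04 ± 0.19 and -1.44 ± 0.19. The histone-binding RBBP4 fell with miR-203 at -1.01 ± 0.11. DYRK1A, the kinase that promotes DREAM assembly, rose with miR-203 by 0.47 ± 0.11 and with miR-205 by 0.39 ± 0.11.

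Of 17 cyclins, kinases and inhibitors that act on RB proteins, 11 were tested. With miR-130a 3 rose and 1 fell (12% and 11.6% of all genes). The inhibitor CDKN1B fell at -0.71 ± 0.10, and CDKN2A, an inhibitor of the cyclin D kinases, rose by 0.76 ± 0.11. The other rises, CDC25A and CCNE1, are also among the E2F targets above, as is CCNE2. With miR-203 1 rose, CDKN1A at 0.46 ± 0.12, and 1 fell, CCND3 at -0.64 ± 0.08 (17.3% and 18.9% of all genes). This count of 2 became 4 without scramble replicate 1 and under 3 other alternatives. With miR-205 0 rose and 9 fell (11.3% and 14.8% of all genes). Among them were the cyclins CCNA2 at -1.19 ± 0.24, CCNE2 at -1.02 ± 0.23 and CCND1 at -0.75 ± 0.10. The inhibitors CDKN2A at -0.36 ± 0.11 and CDKN1B at -0.31 ± 0.10 fell as well.

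Of 16 corepressors and chromatin partners of RB proteins, 13 were tested. With miR-130a 2 rose, HDAC3 at 0.59 ± 0.09 and HDAC1 at 0.25 ± 0.08, and 0 fell (12% and 11.6% of all genes), and the count became 1 without any 1 of the miR-130a arrays, without scramble replicate 2 or 3, and under 3 other alternatives. With miR-203 1 rose, the demethylase KDM5A at 0.37 ± 0.09, and 3 fell, RBBP4 among them (17.3% and 18.9% of all genes), a count of 4 that became 2 without scramble replicate 2 and under 2 other alternatives. With miR-205 0 rose and 3 fell, of which the DNA methyltransferase DNMT1 was at -0.90 ± 0.11 (11.3% and 14.8% of all genes). Only 1 fell without miR-205 replicate 1 or 3, or when the 2 groups were fitted alone.

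Partners of E2F6 in the polycomb complex PRC1.6 were tested for 6 of 10 genes. MAX, which pairs with MGA in that complex, rose with each microRNA, by 0.26 ± 0.08, 0.27 ± 0.08 and 0.63 ± 0.08. RYBP rose with miR-130a by 0.39 ± 0.07 and with miR-205 by 0.50 ± 0.07, and fell with miR-203 at -0.21 ± 0.07. The chromodomain protein CBX3 fell with miR-203 at -0.30 ± 0.09 and rose with miR-205 by 0.52 ± 0.09, and the ligase RING1 fell with miR-205 at -0.54 ± 0.09. MGA rose with miR-203 by 0.35 ± 0.12. In all, 2 rose and 0 fell with miR-130a (12% and 11.6% of all genes), 2 rose and 2 fell with miR-203 (17.3% and 18.9%), and 3 rose and 1 fell with miR-205 (11.3% and 14.8%). The miR-205 count of 4 held under all 21 alternatives. The miR-130a count became 1 without miR-130a replicate 2 or 3, without scramble replicate 1 or 3, and under 3 other alternatives. The 4 calls with miR-203 became 1 without miR-203 replicate 2 or 3 and 2 without miR-130a replicate 3, miR-205 replicate 1 or scramble replicate 1 or 2. They became 0 when the 2 groups were fitted alone and 2 when the probe sets of a gene were averaged.

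Of 7 E2F-linked apoptosis genes only PMAIP1, which encodes the pro-apoptotic NOXA, was tested. It rose with miR-130a by 2.30 ± 0.12 and with miR-203 by 0.97 ± 0.12, and fell with miR-205 at -0.51 ± 0.12. Of all genes 12% rose with miR-130a, 17.3% rose with miR-203 and 14.8% fell with miR-205. With miR-203 PMAIP1 went the other way from the E2F targets, of which 0 rose and 23 fell. Any part of E2F factors in the PMAIP1 differences was not tested.

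The profiles most like that of E2F1 were found by the Euclidean distance over the 12 arrays, each profile centred on its own mean. Among all tested genes outside the members the 5 nearest were the chaperone HSP90AA1 at 0.46, the mitotic kinesin KIF23 at 0.49, the DNA glycosylase NEIL3 at 0.49, the histone acetyltransferase HAT1 at 0.50 and the nucleolar TCOF1 at 0.50. E2F1's own profile spanned a distance of 1.06 from its mean, and the nearest member, RBL1, lay at 0.80. As the choice by likeness to E2F1 on these arrays entails, their differences from scramble were positive with miR-130a, 0.30 to 0.61, and negative with miR-205, from -0.21 to -0.44.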

How the data were processed

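Total RNA of 12 cultures was measured on 1-colour expression arrays. The authors deposited log2 values per probe set. Per the submitters' processing notes, the tools were R 2.9.0, RMA and limma, whose roles are not described, and the background method is not given in the sources used here. Between 29.6% and 31.6% of an array's values sit at the lowest value. Columns were mapped to samples by accession. Probe sets were named through the supplied platform annotation (19070 with 1 symbol, 1043 with several, 2164 with none), and only the first kind was used. Arrays of a group correlated over tested genes with r from 0.992 to 0.997, arrays of different groups from 0.964 to 0.986, and no columns were identical.

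Group means were fitted with limma 3.58.1 in R 4.3.3 (8 residual and 4.84 prior degrees of freedom), all tests were two-sided, and the procedure was tested on simulated data. A second fit covered every bright probe set with 1 symbol. Arrays, not genes, are the replicates, their number limits the precision, and p-values reflect only how much such cultures vary. Members and lists were chosen with earlier results of these data known. Named were all members and, per list and comparison with scramble, up to 4 called genes of largest difference with no overlap, of which the text gives a part. CCNE1 with miR-130a and CDKN1B and CDKN2A with miR-205 were named outside that rule. An uncalled value was taken to have no direction.

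Same-numbered arrays deviated from their group means with correlations between -0.11 and 0.31. All 3 were over 0.1 only for miR-203 against miR-205, where a replicate block changed no member's call.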

Additional observations from a re-analysis of the deposited data

How the results depend on the processing

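Each of the 7 counts of members called, and each member's difference, was recomputed under 21 alternatives (20 for the test among the 4 groups), 12 of which left out 1 array. E2F4 in 1 of these and RBL1 in 1 or 2 did not pass the filter and gave no value. No called difference changed sign. The miR-130a count of 4 was 2 without a filter on dim probe sets and with those of largest variance (E2F6 and RBL1 in both). The miR-205 count of 0 was 1 with quantile scaling, with array weights, with a filter of all 12 arrays and when these 2 groups (6 arrays) were fitted alone. It was 2 (E2F1 and E2F6) when the probe sets of a gene were averaged and with the replicate block. The replicate block also lost RBL2 with miR-130a (adjusted p = 0.0657). It lowered the adjusted p with miR-205 to 0.0273 for E2F1 and to 0.0477 for E2F6. In deviations from group means, 9 of 12 arrays correlated best with their own replicate number among the arrays of other groups. The count for miR-130a against miR-203, 3, was 5 with quantile scaling. For miR-203 against miR-205, 2 became 4 with array weights and 1 when these 2 groups were fitted alone. Leaving out 1 array gave 2 to 3 members for miR-130a, 2 to 5 for miR-203 and 0 to 1 for miR-205 against scramble. It gave 3 to 4, 4 to 5 and 0 to 3 between microRNAs, and 4 to 7 among the 4 groups.

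Counts of list genes were recomputed under the same alternatives, chosen for them after seeing the data. E2F targets called numbered 10 with miR-130a and 14 with miR-203 without a filter on dim probe sets, and 11 to 21, 16 to 23 and 30 to 31 when 1 array was left out. Under quantile scaling the median difference of all genes lay between -0.05 and 0.04. E2F2, E2F4, the dim second probe sets and, outside the miR-130a arrays, RBL1 lie near or at the lowest value, where differences can be understated.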
